A study of Mus musculus with 7 samples.

Results

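The colony-stimulating factor receptors and ligands were described in microglia sorted from inside and outside WT grafts. They are 8 genes of the 55341 gene names in the counts: the receptors Csf1r, Csf2ra, Csf2rb, Csf2rb2, Csf3r and Flt3, and the ligands Csf1 and Il34. They were taken by gene name. All microglia were from 5xFAD mice of the C57BL/6 strain, labelled as 14 weeks old and, by the study's methods, female. These mice carry mutant human APP and PS1 transgenes driven by the neuron-specific Thy1 promoter. Embryonic cortical cells of WT mice had been injected into the cortex, and tissue was taken 4 weeks later. The inside-graft group comprised 3 libraries of CD11b+CD45low cells from the dissected graft, and the outside-graft group 4 libraries of the same gate from cortical pieces near it. Both groups therefore shared host genotype, age, injection and sort, and they were defined by the site of the cells. The labels do not say which libraries came from one mouse, or whether mice were pooled, so the P values measure the spread between these libraries.

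CSF1R is the receptor tyrosine kinase on which microglia depend for survival, and it has a pair of ligands, CSF1 and IL-34. In the brain IL-34 is made mainly by neurons, whereas CSF1 comes from glia as well as neurons. The receptors for GM-CSF (an α chain encoded by Csf2ra and a shared β chain encoded by Csf2rb) and for G-CSF (Csf3r) belong to the cytokine receptor family and signal through JAK kinases and STAT factors. Mice carry a second β chain gene, Csf2rb2, whose product serves IL-3 alone. FLT3 is a tyrosine kinase related to CSF1R that acts in blood progenitors and dendritic cells.

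Csf1, the ligand, and Csf2ra, the GM-CSF receptor α chain, were the members with every inside-graft library above every outside-graft library. Their fitted levels were 2.37-fold and 1.56-fold higher inside the graft, and neither passed the adjusted P threshold of 0.01. Csf1r was among the most abundant transcripts in every library, with a lower mean inside the graft and overlapping groups. Csf2rb, Csf2rb2, Csf3r and Flt3 also overlapped between the groups, and Il34 had 1 count in all libraries together.

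Totals per library were 23241114 to 25882122 counts inside the graft and 18644807 to 24599193 counts outside it. The sum of 9 microglia markers, given in CPM (counts relative to the library total, adjusted by TMM, the trimmed mean of M values), was 24136 to 28453 CPM inside and 29186 to 32563 CPM outside the graft, led by Cx3cr1 and P2ry12. All 9 had a negative fitted log2 fold change. Of them 6 had an unadjusted edgeR P below 0.05, where 3.79% of all tested genes were lower at that level. None of the 9 passed an adjusted edgeR P of 0.05. As a sum, neutrophil markers stood out inside the graft, although the CD45low gate should leave neutrophils out. Their sum was 7891, 827 and 16036 CPM in inside grafts 1 to 3, against 0.356 to 394 CPM outside. Among them S100a8 was detected in all libraries, whereas Ngp had 0 counts in outside grafts 1, 2 and 4. Of the 9 tested neutrophil markers 7 had every inside library above every outside one, against 5.65% of all tested genes. Cxcr2 and Retnlg had 0 counts in inside graft 2, and Retnlg was highest in outside graft 3. Mmp8, too low to test, had 167 counts in outside graft 3 and 15 in inside graft 2. The sum of monocyte markers was 92.8 to 1558 CPM inside and 9.498 to 36.2 CPM outside the graft, with Chil3 and Hp at 0 counts in outside grafts 1 and 2. Chil3 alone made up most of the inside sums, at 587, 67.6 and 1189 CPM in inside grafts 1 to 3. Of the 10 monocyte markers 9 had a positive fitted log2 fold change and 1, Vcan, a negative one (-0.025). Of the 10, 5 had every inside library above every outside one, against 5.65% of all tested genes. Ccr2 was at 4.26 CPM in inside graft 2, within its outside range of 4.06 to 18.1 CPM. Border-associated macrophage markers, led by Mrc1 and Ms4a7, summed to 17.0 to 99.3 CPM inside and 6.32 to 15.05 CPM outside. Proliferation markers summed to 120 to 163 CPM inside and 33.9 to 64.4 CPM outside the graft. Dendritic cell markers, led by Batf3 and Itgae, summed to 33.7 to 47.6 CPM inside and 23.2 to 45.1 CPM outside, and 4 of the 8, Clec9a, Cd209a, Ccr7 and Kmo, were too low to test. Lymphocyte markers reached 13.3 CPM at most and none of the 8 could be tested. The sums for neurons were 4.16 to 6.07 CPM inside and 4.31 to 10.5 CPM outside, and those for oligodendrocytes 156 to 161 CPM and 156 to 165 CPM. Astrocyte markers summed to 248 to 298 CPM inside and 326 to 352 CPM outside. Most of this was Slc1a3 alone, at 245 to 287 CPM inside and 320 to 347 CPM outside. Aldh1l1 went the other way, with means of 6.55 CPM inside and 1.08 CPM outside. Of the 5 tested astrocyte markers 2 had a positive and 3 a negative fitted log2 fold change.

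**Figure D1:**
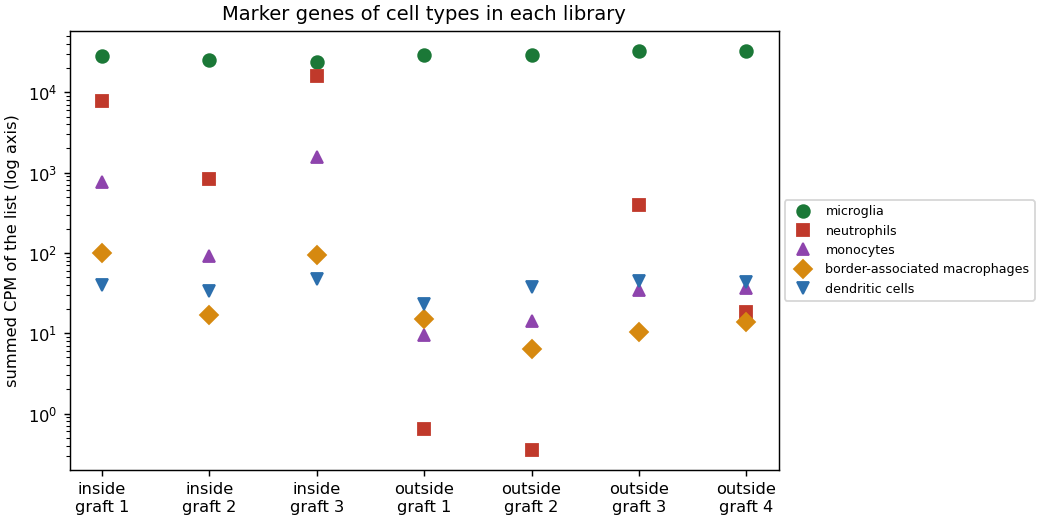
Summed level of 5 marker lists in each library, in TMM-normalized CPM on a log axis, with 1 colour and symbol per list: microglia (green circles), neutrophils (red squares), monocytes (purple triangles), border-associated macrophages (orange diamonds) and dendritic cells (blue inverted triangles). Neutrophil markers ran from 827 to 16036 CPM inside the graft and from 0.356 to 394 CPM outside it, whereas microglia markers were at 24136 CPM or more in every library.

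The comparison used edgeR's quasi-likelihood test over the 15257 genes that passed the filter on low counts, and limma's voomWithQualityWeights, the test named in the study's methods. Of the 8 members 7 were tested, and Il34 was too low. At an adjusted P below 0.01, 0 of the 7 were called by either test, where edgeR called 0% and voomWithQualityWeights 0.0197% of all tested genes. At an adjusted P below 0.05 the 7 members again gave 0 calls, against 0.0983% of all tested genes in edgeR and 0.492% in voomWithQualityWeights. Before adjustment, Csf1 and Csf2ra had an edgeR P below 0.05 with a higher level inside the graft, 2 of 7 members or 28.6%, against 5.76% of all tested genes. None of the 7 was lower at that level, against 3.79%. The same 2 members had every inside-graft library above every outside-graft library, against 5.65% of all tested genes, and 0 of 7 had the opposite order, against 5.02%. The median log2 fold change of the 7 members was 0.23, and that of all tested genes -0.0064.

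**Figure D2:**
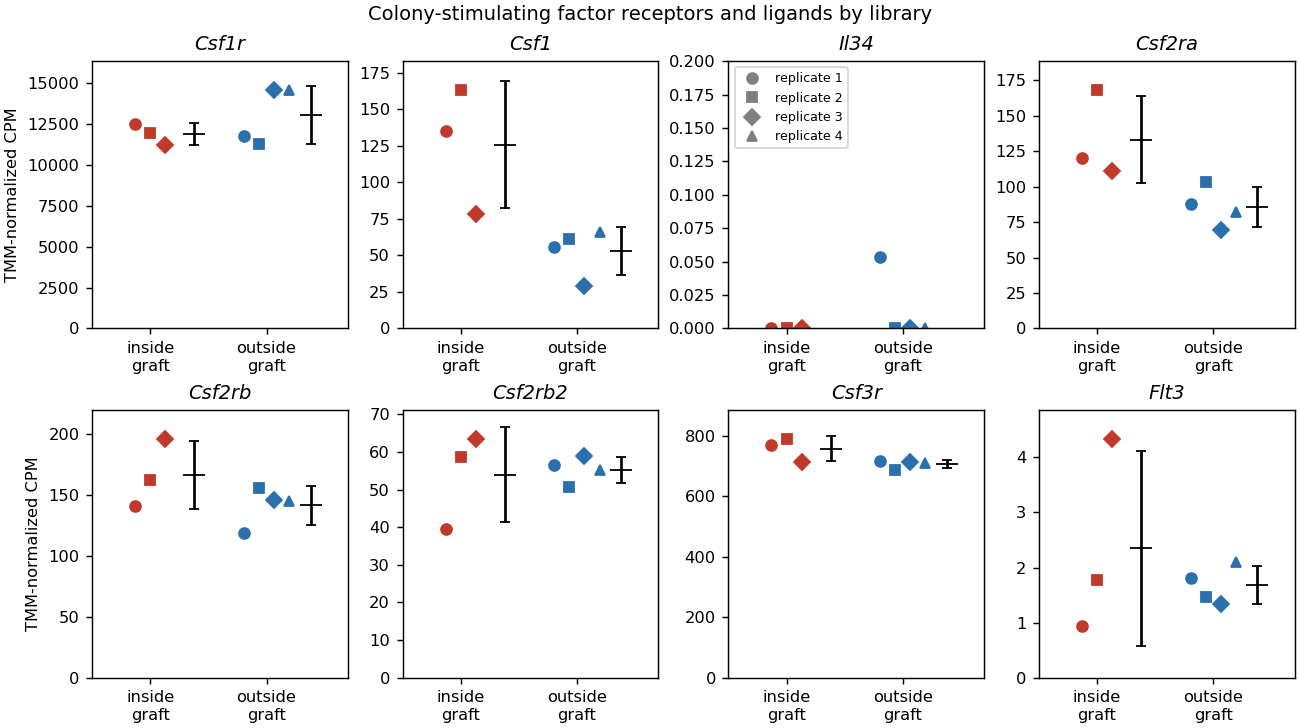
TMM-normalized CPM of the 8 members in each library, inside (red) and outside (blue) the graft, with mean and SD beside the points except for Il34 and with a separate linear axis from 0 for each gene. The groups of Csf1 and of Csf2ra did not overlap, and the single Il34 point above 0 stands for 1 count.

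Per length of exon, Csf1r was by far the most abundant member. Its level in RPKM (the CPM divided by the kilobases of merged exons) averaged 2061 ± 115 (SD, n = 3) in the graft and 2267 ± 307 (SD, n = 4) around it, at rank 15 of 15257 tested genes. Csf3r came next, with 210 ± 11.3 and 195.8 ± 3.65 RPKM, and no library of one gene reached the range of the other. Csf2ra averaged 46.4 ± 10.7 RPKM inside and 29.8 ± 4.97 RPKM outside the graft. Csf2rb averaged 22.9 ± 3.82 and 19.5 ± 2.18 RPKM, and it lay below Csf2ra in each of the 7 libraries. The ligand Csf1 averaged 23.8 ± 8.18 RPKM inside and 10.1 ± 3.12 RPKM outside the graft. Csf2rb2 averaged 11.4 ± 2.68 and 11.7 ± 0.728 RPKM, and its highest library, 13.4 RPKM, stayed under the lowest library of Csf2rb, 16.4 RPKM. The range of Csf1 over all libraries, 5.55 to 30.9 RPKM, overlapped those of both β chain genes, and in inside graft 3 Csf1, at 14.9 RPKM, was nearer to Csf2rb2 than to Csf2rb. Flt3, at 0.381 ± 0.287 and 0.272 ± 0.0568 RPKM, ranked 13907 of 15257, and Il34 lay below it in every library.

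**Figure D3:**
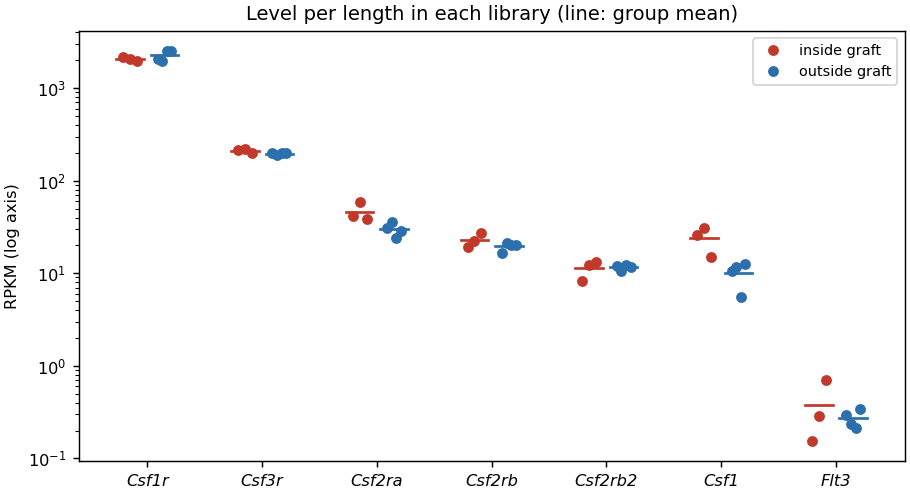
Length-scaled level (RPKM, log axis) of the 7 tested members in every library, with receptors by level, then the ligand Csf1, then Flt3, inside the graft in red and outside it in blue, and a line at each group mean. Csf1r lay between 1941 and 2531 RPKM and Flt3 between 0.153 and 0.703 RPKM, and Csf1 overlapped both Csf2rb and Csf2rb2.

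Csf1r (ENSMUSG00000024621.16, chr18:61100598-61132149, plus strand, GRCm38) encodes the receptor for CSF1 and IL-34. Its level inside the graft was 12528, 11965 and 11208 CPM in inside grafts 1, 2 and 3. Outside the graft it was 11809.5, 11314, 14613 and 14611.5 CPM in outside grafts 1 to 4. Outside grafts 3 and 4 were the highest, while outside grafts 1 and 2 lay among the inside libraries, so the groups overlapped. Csf1r took 1.14% to 1.49% of all counts of a library. The means were 11900 ± 662 CPM (SD, n = 3) and 13087 ± 1773 CPM (SD, n = 4). The fitted difference, as a log2 fold change with positive values for a higher level inside the graft, was -0.14 ± 0.10 (SE), with an adjusted P of 0.757 in edgeR. In voomWithQualityWeights it was -0.19, with a 95% interval from -0.41 to 0.026 and an adjusted P of 0.491. Exons of Csf1r share 873 bases with exons of Hmgxb3, a gene on the opposite strand, and the counting ignored strand. Of the windows of 75 bases, the read length, 13.9% of those of Csf1r occur in Hmgxb3 as well. Hmgxb3 itself had 9247 counts over the 7 libraries, against 2054479 of Csf1r. The effect of the shared bases on the Csf1r level cannot be read from these totals and was not tested.

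Il34 (ENSMUSG00000031750.15, chr8:110741829-110805924, minus strand) encodes the other CSF1R ligand. It had 1 count in outside graft 1 and 0 counts in the other 6 libraries. A count of 0 allows up to 3 counts, which is 0.118 to 0.160 CPM in these libraries, and covers counting error only. Il34 was thus at or below the limit of detection on both sides of the graft border, and no fold change was formed.

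Csf1 (ENSMUSG00000014599.10, chr3:107741048-107760469, minus strand) encodes the secreted and membrane-bound ligand of CSF1R. Its level was 135, 163 and 78.6 CPM in inside grafts 1 to 3. Outside the graft it was 55.6, 61.5, 29.3 and 66.2 CPM in outside grafts 1 to 4. The groups did not overlap, and the closest libraries were inside graft 3 and outside graft 4. The means were 126 ± 43.2 CPM (SD, n = 3) and 53.2 ± 16.5 CPM (SD, n = 4). This was a log2 fold change of 1.24 ± 0.29 (SE), with an unadjusted P of 0.00174 and an adjusted P of 0.130 in edgeR, rank 202 of 15257 genes by P. In voomWithQualityWeights it was 1.36, with a 95% interval from 0.67 to 2.04 and an adjusted P of 0.0823. Csf1 passed 0.01 under 2 alternatives to the edgeR fit, with an adjusted P of 0.00244 without the filter on low counts and of 0.00126 in the DESeq2 Wald test, which called 232 of all genes. When single libraries were left out, Csf1 had log2 fold changes of 1.01 to 1.49 and edgeR adjusted P of 0.162 to 0.315.

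The 250 bases before the RefSeq start of Csf1 (GRCm38.p6, chr3:107760470-107760719, minus strand) are shown because Csf1 had the largest fold change of the members. They hold none of the 3 motifs that were searched on both strands, which were GAGGAA (a core of the sites of the myeloid factor PU.1), TGACTCA (AP-1) and TTGCGCAA (a C/EBP palindrome). These occur in 23.1%, 4.43% and 0.17% of 27025 promoter windows of this length.
Csf1 promoter: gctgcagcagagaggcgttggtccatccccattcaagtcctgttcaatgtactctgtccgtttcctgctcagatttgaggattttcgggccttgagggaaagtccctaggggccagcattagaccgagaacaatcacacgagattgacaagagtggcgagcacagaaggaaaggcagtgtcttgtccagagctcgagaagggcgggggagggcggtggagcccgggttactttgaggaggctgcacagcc

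Csf2ra (ENSMUSG00000059326.7, chr19:61223957-61228429, minus strand) encodes the α chain that gives the GM-CSF receptor its ligand specificity. It stood at 120, 168 and 111 CPM in inside grafts 1 to 3. Outside the graft it was 87.5, 104, 69.2 and 82.4 CPM in outside grafts 1 to 4. The groups did not overlap, with inside graft 2 far above the rest and inside graft 3 just above outside graft 2. The means were 133 ± 30.8 CPM (SD, n = 3) and 85.7 ± 14.3 CPM (SD, n = 4). Csf2ra thus had a log2 fold change of 0.64 ± 0.18 (SE), with an unadjusted P of 0.00485 and an adjusted P of 0.208 in edgeR, rank 356 by P. In voomWithQualityWeights it was 0.69, with a 95% interval from 0.32 to 1.06 and an adjusted P of 0.103. Without inside graft 2 the edgeR log2 fold change was 0.44, with an adjusted P of 0.456. Csf1 and Csf2ra followed each other over the 7 libraries, with a Pearson r of 0.925 between their log2 CPM, given as a description over libraries of both groups.

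The corresponding window of Csf2ra (chr19:61228419-61228668, minus strand) is shown for comparison, with GAGGAA in capitals. It holds 2 such motifs side by side at its 3′ end, where the GENCODE gene model already begins, and neither of the others. Promoter windows were matched for 5 of the 8 members, and of the other 3 matched members Csf2rb2 and Csf3r held 1 GAGGAA each and Flt3 none. The GAGGAA of Csf3r also lies past the start of its GENCODE gene model.
Csf2ra promoter: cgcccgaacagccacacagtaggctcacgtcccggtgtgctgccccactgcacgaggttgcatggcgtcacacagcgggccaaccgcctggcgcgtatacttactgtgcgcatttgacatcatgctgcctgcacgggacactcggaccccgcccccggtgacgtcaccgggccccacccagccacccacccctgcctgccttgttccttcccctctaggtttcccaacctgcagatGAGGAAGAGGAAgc

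Csf1 and Csf2ra were highest in inside graft 2 and lowest among the inside libraries in inside graft 3, where the sums of neutrophil markers were 827 and 16036 CPM and those of monocyte markers 92.8 and 1558 CPM. With inside graft 2 as the only inside library, an alternative added after the data were seen, the log2 fold changes were 1.62 for Csf1 and 0.98 for Csf2ra. That library was the highest for both genes, so the larger values follow from its choice and are no test. The sums of border-associated macrophage and proliferation markers were also higher in each inside library. In inside graft 2 the macrophage sum was 17.0 CPM, against at most 15.05 CPM outside. Mrc1, at 7.81 CPM in that library, lay within its outside range of 4.18 to 14.2 CPM. The part of any of these cells in the levels of Csf1 and Csf2ra was not tested. In these bulk libraries, fewer cells of a type and less RNA per cell cannot be told apart.

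Csf2rb (ENSMUSG00000071713.6, chr15:78325752-78353847, plus strand) encodes the β chain through which GM-CSF, IL-3 and IL-5 signal, and Csf2rb2 (ENSMUSG00000071714.7, chr15:78282507-78305721, minus strand) is its neighbour and near copy. Their coding sequences in GENCODE M21 have 2688 and 2634 bases, and 2503 of 2628 aligned positions without a gap, 95.2%, are identical. Reads that fit more than 1 place were not counted, so reads that lie wholly in identical stretches are missing from the counts of both. Of all windows of 75 bases, the read length, 7.15% of those of Csf2rb and 10.6% of those of Csf2rb2 occur in the other gene as well. Both genes also hold 62 bases of a microRNA gene with 0 counts. The longest identical run shows where a read cannot be assigned. It covers coding bases 2083 to 2324 of each gene, in exon 15 of Csf2rb (chr15:78348577-78348818) and exon 14 of Csf2rb2 (chr15:78284630-78284871), read along the coding strand.
Csf2rb and Csf2rb2, identical: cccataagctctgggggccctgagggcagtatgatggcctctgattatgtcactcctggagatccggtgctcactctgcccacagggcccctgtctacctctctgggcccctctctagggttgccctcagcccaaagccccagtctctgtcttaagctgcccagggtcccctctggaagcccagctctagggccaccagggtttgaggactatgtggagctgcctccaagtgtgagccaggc

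The 75-base window in which the copies are least alike shows the opposite case, with the 14 bases that differ in capitals. It lies in exon 5 of Csf2rb (chr15:78338905-78338979, plus strand) and exon 4 of Csf2rb2 (chr15:78294352-78294426, minus strand).
Csf2rb: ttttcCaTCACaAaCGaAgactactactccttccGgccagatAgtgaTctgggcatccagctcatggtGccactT
Csf2rb2: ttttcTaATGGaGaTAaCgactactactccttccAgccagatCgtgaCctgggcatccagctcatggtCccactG

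The level of Csf2rb was 141, 162 and 196 CPM in inside grafts 1 to 3. Outside the graft it was 119, 156, 146 and 146 CPM in outside grafts 1 to 4. Inside graft 3 was the highest library, and the other inside libraries lay within or near the outside range. The means were 167 ± 27.8 CPM (SD, n = 3) and 142 ± 15.9 CPM (SD, n = 4), and the log2 fold change was 0.23 ± 0.14 (SE), with an adjusted P of 0.677 in edgeR. In voomWithQualityWeights the 95% interval ran from -0.12 to 0.44, with an adjusted P of 0.690.

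The level of Csf2rb2 was 39.5, 58.8 and 63.5 CPM in inside grafts 1, 2 and 3. Outside the graft it was 56.5, 50.6, 58.8 and 55.1 CPM. The inside libraries lay on both sides of the outside ones. Csf2rb2 had a log2 fold change of -0.035 ± 0.17 (SE), with an adjusted P of 0.981 in edgeR, and the 95% interval in voomWithQualityWeights ran from -0.49 to 0.26. Without inside graft 1 the log2 fold change turned to 0.15. Csf2rb2 took 21.9%, 26.6% and 24.4% of the counts of both genes inside the graft and 32.2%, 24.5%, 28.7% and 27.5% outside it. The exact 95% binomial intervals spanned from 20.7% to 23.1% in inside graft 1, the lowest share, and from 30.6% to 33.8% in outside graft 1, the highest, and the groups overlapped. The counts of both genes summed gave 221 ± 39.5 CPM (SD, n = 3) in the graft, 197 ± 14.6 CPM (SD, n = 4) around it, and a log2 fold change of 0.16 ± 0.14 (SE) with an edgeR adjusted P of 0.794.

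Csf3r (ENSMUSG00000028859.14, chr4:126024550-126044440, plus strand) encodes the G-CSF receptor, known above all from neutrophils. Its level was 771, 790.4 and 712 CPM in inside grafts 1, 2 and 3. Outside the graft it was 716, 687, 712 and 711 CPM in outside grafts 1 to 4. Inside grafts 1 and 2 were the highest libraries, whereas inside graft 3, with the largest sum of neutrophil markers, lay within the outside range. The means were 758 ± 40.9 CPM (SD, n = 3) and 707 ± 13.2 CPM (SD, n = 4). For Csf3r the log2 fold change was 0.10 ± 0.091 (SE), with an adjusted P of 0.816 in edgeR, and the 95% interval in voomWithQualityWeights ran from -0.062 to 0.27. The part of neutrophil RNA in the Csf3r level was not tested.

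Flt3 (ENSMUSG00000042817.15, chr5:147330741-147400489, minus strand) encodes the receptor of FLT3 ligand. It had 24, 40 and 103 counts in inside grafts 1, 2 and 3, which are 0.942, 1.78 and 4.34 CPM. In outside grafts 1 to 4 it had 34, 33, 33 and 52 counts, which are 1.81, 1.47, 1.33 and 2.11 CPM. Inside graft 3 was the highest library and inside graft 1 the lowest, with all outside libraries between them. For Flt3 the log2 fold change was 0.48 ± 0.60 (SE), with an adjusted P of 0.880 in edgeR, and the 95% interval in voomWithQualityWeights ran from -1.14 to 1.35. Without inside graft 3 it turned to -0.31. Inside graft 3 also had the largest sums of neutrophil, monocyte, lymphocyte and dendritic cell markers. It held 214 counts of the dendritic cell marker Ccr7 and all 18 counts of Cd209a, with 1 count of Ccr7 elsewhere. The other dendritic cell markers, Zbtb46, Xcr1, Clec9a, Batf3, Itgae and Kmo, were each highest in another library. Xcr1 had 0 counts in inside graft 3 and 24 in outside graft 4. The dendritic cell sum was 47.6 CPM in inside graft 3 and 45.1 CPM in outside graft 3. The part of these cells in the Flt3 level of inside graft 3 was not tested.

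**Figure D4:**
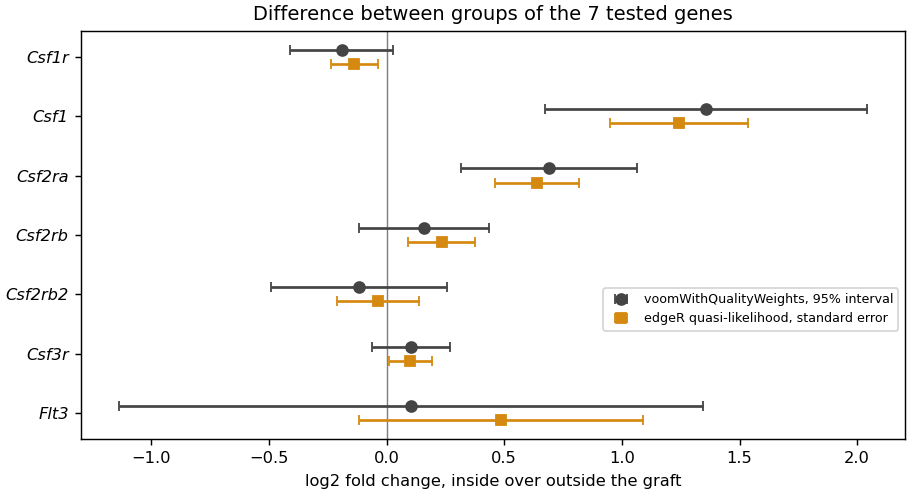
Log2 fold change between the groups of the 7 tested members, positive where the level was higher inside the graft, from voomWithQualityWeights with its 95% interval (black circles) and from edgeR with its standard error (orange squares). The 95% intervals of Csf1 and Csf2ra lay above 0 and those of the other 5 members included it.

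Of 57 genes in 4 lists around these receptors 47 were tested, and 0 passed an adjusted P of 0.05 in either test. Before adjustment 3 of the 47 were higher inside the graft at an edgeR P below 0.05, or 6.38%, and 2 were lower, or 4.26%, against 5.76% and 3.79% of all tested genes. The medians of the log2 fold changes were 0.0035 for 22 genes of CSF1R signalling, -0.020 for 13 genes of JAK-STAT signalling and 0.032 for 8 myeloid transcription factors, beside -0.0064 for all tested genes. The 4 tested genes of related ligands and receptors had a median of 0.59.

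In CSF1R signalling, 11 genes had a positive and 11 a negative log2 fold change. Tyrobp, the adaptor also known as DAP12 that microglial receptors share, averaged 1903 ± 595 CPM (SD, n = 3) in the graft and 1294 ± 352 CPM (SD, n = 4) around it, a log2 fold change of 0.56 with an unadjusted P of 0.0396 and an adjusted P of 0.482 in edgeR. Its highest library was inside graft 2, with 2569 CPM, and the groups overlapped. The next genes by P were Ptpn6, the phosphatase SHP-1 that dampens receptor signalling, with 0.20 and an edgeR adjusted P of 0.620, and Pik3r1, a regulatory subunit of PI3 kinase, with -0.20 and 0.652.

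In JAK-STAT signalling Socs2, an inhibitor induced by STAT5, had 1.49, 4.26 and 3.58 CPM in inside grafts 1, 2 and 3. It had 0.534, 0.267, 0.925 and 1.498 CPM in outside grafts 1 to 4, so that inside graft 1 and outside graft 4 met. The log2 fold change of Socs2 was 1.94 ± 0.69 (SE), with an edgeR adjusted P of 0.358. Sh2b3, the adaptor LNK that restrains JAK2, was lower in every inside library, at 206 to 239 CPM against 246 to 348 CPM, a log2 fold change of -0.37 with an edgeR adjusted P of 0.410. Stat5a, a factor activated by GM-CSF, had -0.42 and 0.658. The inhibitor gene Cish was too low to test.

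Among myeloid transcription factors Spi1, which encodes PU.1, averaged 270 ± 27.7 CPM (SD, n = 3) in the graft and 330 ± 11.8 CPM (SD, n = 4) around it. Every inside library lay below every outside one, and the log2 fold change was -0.29 ± 0.11 (SE), with an unadjusted P of 0.0218 and an adjusted P of 0.392 in edgeR. Egr2, an early response gene, stood at 0.799 to 1.31 CPM inside and 0.121 to 0.688 CPM outside, a log2 fold change of 1.703 with an edgeR adjusted P of 0.566. Runx1 had 0.097 and an edgeR adjusted P of 0.874.

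Ligands and receptors related to the members were scarce. Csf2, Il3 and Il5, the ligands of the shared β chain, and Il5ra had 0 counts in all 7 libraries, and Csf3, which encodes G-CSF, had 1 count in total. Of 13 such genes 4 were tested. Il3ra, the α chain of the IL-3 receptor, had 5.02, 10.6 and 2.32 CPM in inside grafts 1, 2 and 3 and 0.800, 3.20, 1.29 and 1.90 CPM in outside grafts 1 to 4. As with Csf1 and Csf2ra, inside graft 2 was the highest, but inside graft 3 lay within the outside range. The log2 fold change of Il3ra was 1.72 ± 0.62 (SE), with an unadjusted P of 0.0190 and an adjusted P of 0.366 in edgeR. Kitl, the ligand of KIT, averaged 13.4 ± 3.90 CPM (SD, n = 3) in the graft and 9.68 ± 4.52 CPM (SD, n = 4) around it, with outside graft 1 lowest at 2.99 CPM, and a log2 fold change of 0.47 with an edgeR adjusted P of 0.826. Flt3l, the ligand of FLT3, had -0.18 and 0.947, and Pdgfrb 0.70 and 0.923. Kit had 111 counts, 102 of them in inside graft 1, and Ptprz1, a receptor described for IL-34, had 47 counts, 38 of them in outside graft 1. Pdgfra and Sdc1 had 14 and 22 counts in total.

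**Figure D5:**
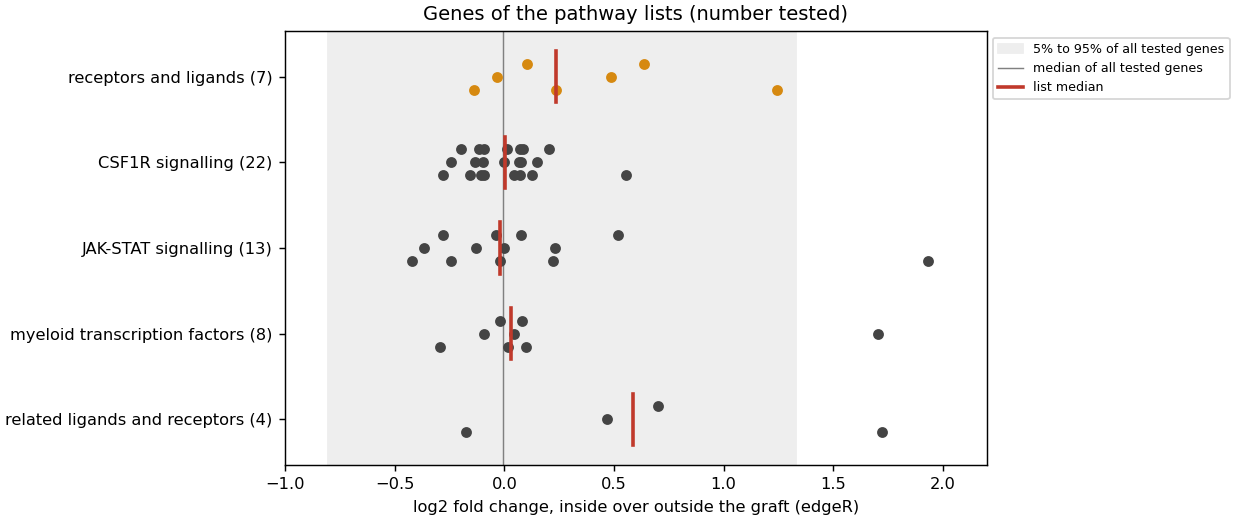
edgeR log2 fold change, positive where higher inside the graft, of the tested members (orange points) and of the tested genes of the 4 lists (black points), with list medians in red and the range from the 5th to the 95th percentile of all tested genes in grey. The points to the right of the grey range are Socs2 at 1.94, Il3ra at 1.72 and Egr2 at 1.703.

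The genes whose log2 CPM followed each member most closely over the 7 libraries were taken from the tested genes with a mean of at least 10 CPM. For Csf1 they were Igf1 (Pearson r = 0.982), which encodes a growth factor, Pdcd1 (0.982), which encodes the receptor PD-1, and Cst7 (0.973), which encodes a cysteine protease inhibitor. All 3 had higher means inside the graft, at 25.02 against 4.38 CPM for Igf1, 49.0 against 14.1 CPM for Pdcd1 and 576 against 118 CPM for Cst7, with edgeR adjusted P of 0.172, 0.116 and 0.179. For Csf2ra they were Cd63 (0.992), Cd52 (0.992) and the receptor gene Gpr84 (0.985). Cd63, which encodes a tetraspanin of endosomes, averaged 767 CPM inside and 426 CPM outside the graft, and Cd52 274 and 108 CPM. Of 8916 candidate genes, 1.04% had an r above 0.9 with Csf1 and 1.82% with Csf2ra.

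For Csf1r the closest were Rasgrp3 (0.975), Fmnl3 (0.969) and Hbp1 (0.967), for Csf2rb Tbc1d10a (0.993), Rnps1 (0.961) and Capn10 (0.956), and for Csf2rb2 Entpd6 (0.969), Taf6l (0.967) and Gm26780 (0.939). For Csf3r they were Hscb (0.983), Akt2 (0.973) and Nucb1 (0.963), and for Flt3 Wdr43 (0.969), Ubp1 (0.965) and Nadsyn1 (0.955). These correlations are over only 7 libraries, which share tissue and differ in depth, and are given without a test.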

How the data were processed

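Microglial RNA was sequenced as single reads after amplification with the SMARTer kit, which does not mark strand. The authors aligned the reads with STAR 2.7.2a and counted them per gene with featureCounts 1.6.2 (GENCODE M21, GRCm38.p6). The deposited values are these raw counts, per the file headers and the submitters' processing notes. Reads with several alignments were left out and strand was ignored. Totals were 18644807 to 25882122 counts per library. Amplified reads are not independent molecules.

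Groups and replicate numbers came from the labels. Genes were filtered with filterByExpr, leaving 15257, and normalized with TMM. Tests were edgeR 4.0.16 (glmQLFit, glmQLFTest) and limma 3.58.1 (voomWithQualityWeights) in R 4.3.3, with Benjamini-Hochberg adjustment over all tested genes and thresholds of 0.01 and 0.05. Standard errors are those implied by the edgeR F statistic. RPKM used the deposited gene lengths. The scripts were tested on simulated data. Alternatives were other scalings, filters, tests and thresholds, DESeq2 1.42.0, summed paralogs, a replicate block and each library left out.

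Members and gene lists were chosen with earlier results of these data known. Text names all members, all related ligands and receptors and the 3 genes of each other pathway list with the smallest edgeR P. It also names the 3 closest genes of each member and up to 2 markers of highest level per marker list. The other dendritic cell markers, the monocyte markers Ccr2 and Vcan and the neutrophil markers Cxcr2, Retnlg and Mmp8 are named beside them. A further microglia marker is not reported here and was left out of that list's sum and counts after the data were seen. Promoter sequences are from RefSeq (GRCm38.p6).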

Additional observations from a re-analysis of the deposited data

Results flagged for a closer look

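Among the 4 outside-graft libraries, 25 values of members, related genes and marker sums were screened for a library far from the others by Dixon's test, and 4 were found where chance gives about 1.25. The summed CPM of neutrophil markers was 393.5 in outside graft 3, against 0.356 to 18.4 in the other outside libraries. The summed CPM of neuron markers was 10.51 in outside graft 1, against 4.31 to 5.35. The summed CPM of oligodendrocyte markers was 156.5 in outside graft 1, against 164 to 165. Kitl was at 2.988 CPM in outside graft 1, against 10.9 to 12.5 CPM. These 3 values of outside graft 1 only just passed the critical ratio of gap to range, 0.829. Their ratios were 0.833, 0.834 and 0.83, and coming from 1 library they are not independent. Outside graft 1 had the smallest total count and the lowest quality weight, 0.448. None of the 7 tested members had such a library, and Il34, with 1 count in total, was not screened.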

How the results depend on the processing

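At an adjusted P below 0.01, edgeR called 0 of the 7 tested members, and 1, Csf1, without the low-count filter (29525 genes tested) and 1, again Csf1, in the DESeq2 Wald test. With voomWithQualityWeights 0 were called, and 1, Csf1, with the replicate block without outside graft 4 (adjusted P of 0.000772). With each library left out in turn both tests called 0. No pathway gene was called under any edgeR alternative or in DESeq2, and the voomWithQualityWeights alternatives were not run for those lists. The deviations of same-numbered libraries from their group means had correlations of -0.121, 0.257 and 0.239. They were not treated as pairs, and whether they came from one mouse is unknown. The block left edgeR at 0 members and gave Csf1 a log2 fold change of 1.37 (adjusted P of 0.0232). Over all genes, edgeR called 0 genes, and 190 without the filter, 20 where every library needed at least 10 counts, 5 with the block, 40 with legacy=FALSE, 15 at an adjusted P of 0.05, 232 with DESeq2 and 0 to 1 with a library left out. voomWithQualityWeights called 3 genes, and 41, 48 and 77 under the first 3 of these, 75 at 0.05, 1 without quality weights, 1 scaled by library size alone, 30 without inside grafts 1 and 3 and 0 to 33 with a library left out.

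Csf1 and Csf2ra kept a positive log2 fold change under every alternative run in both tests. With edgeR, DESeq2 and the main voomWithQualityWeights fit these were 1.01 to 1.62 for Csf1 (adjusted P of 0.00126 to 0.315) and 0.44 to 0.98 for Csf2ra (0.0249 to 0.456), and under the alternatives of voomWithQualityWeights 0.978 to 1.77 (0.000772 to 0.278) and 0.51 to 1.05 (0.0313 to 0.462). Over both tests Csf1r stayed negative (-0.26 to -0.071), and Csf2rb (0.057 to 0.34) and Csf3r (0.064 to 0.17) stayed positive. In edgeR the direction of Csf2rb2 turned to 0.149 without inside graft 1, 0.0921 without inside grafts 1 and 3, and 0.164 with both paralogs summed, over a range from -0.17 with a library left out. In voomWithQualityWeights it turned to 0.136, 0.0809 and 0.0896 under the same alternatives and to 0.054 with the block. That of Flt3 turned to -0.306 in edgeR without inside graft 3, over a range up to 0.87, and in voomWithQualityWeights to -0.367 without inside graft 3 and -0.0133 without outside graft 3. The cause was not tested. Flt3 rests on 24 to 103 counts per library, which limits its precision.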
